A study of Homo sapiens with 6 samples.

Results

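The EGF family of growth factors and their ERBB receptors were examined in human fibroblasts with active oncogenic Ras, depleted of the long noncoding RNA sin-lncRNA. The members were chosen by gene name and are 10 of the 57819 genes in the deposited table: the ligands AREG, EREG, HBEGF, TGFA, BTC and NRG1, the receptors EGFR, ERBB2 and ERBB3, and the receptor inhibitor ERRFI1. The cells were IMR90 ER:Ras, an established line of lung fibroblasts in which oncogenic Ras, joined to part of the estrogen receptor, is switched on by 4-hydroxytamoxifen (4OHT). Both groups received 200 nM 4OHT for 3 days. Control cells were given the scrambled siRNA siSCR and knockdown cells an siRNA against sin-lncRNA (sin-lncRNA KD), with 3 libraries of polyA RNA each. All 6 libraries come from 4OHT-treated cells, so no level can be set against cells without active Ras. The knockdown libraries all carry the same siRNA name, so effects of that siRNA other than on its target cannot be told apart from the knockdown.

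EGF-family ligands are made as membrane-anchored precursors that metalloproteases cut loose, and the freed growth factor then binds ERBB receptors on the same or neighbouring cells. AREG and TGFA bind EGFR, whereas HBEGF, EREG and BTC bind EGFR and ERBB4, and NRG1 binds ERBB3 and ERBB4. Active Ras is known to raise several of these ligands, and fibroblasts in oncogene-induced senescence secrete growth factors of this family alongside inflammatory factors.

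The family moved apart on knockdown of sin-lncRNA. Transcripts of the ligands NRG1 and EREG fell to 57.9% and 64.3% of control, those of EGFR rose to 130.2%, ERBB2 fell to 87.1%, and the HBEGF libraries of both groups overlapped. AREG and ERRFI1 rose by small amounts. The AREG call was lost on leaving out any library but control replicate 1. That of ERRFI1 was lost on leaving out any but knockdown replicate 3. The AREG call was also lost when the reads of AREGB, a near-identical copy in the table, were added. Of the 10 members, 7 had enough reads for the test (10 or more normalized reads on average). Among these 7, 3 were higher and 3 lower in knockdowns (limma, Benjamini-Hochberg adjusted p, written BH p, under 0.05 over all 19048 genes tested). The same test called 41.0% of all genes tested, 17.5% higher and 23.5% lower. Control and knockdown libraries did not overlap for 6 of the 7 members, against 51.1% of all genes tested. The median log2 fold change of the tested members was 0.0052, against -0.04 for all genes tested.

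The depth and the identity of the libraries were checked first. Reads in genes ran from 30271192 to 50913672 in controls and from 22117324 to 27882280 in knockdowns, so the knockdowns were all less deeply sequenced than the controls. With each library thinned at random to 22117324 reads, the same test called 6 members. The targeted sin-lncRNA (ENSG00000234693.1) stood at 4.17 ± 0.52 RPM in controls and 0.556 ± 0.076 in knockdowns (SD, n = 3), so it fell by 2.86 on the log2 scale (BH p in limma = 7.9e-07), where RPM is reads scaled to an effective library size of 1000000. The fibroblast markers COL1A1, COL1A2, VIM, THY1 and PDGFRB all had reads, at a summed 13563 to 14546 RPM in controls and 8570 to 8901 in knockdowns, and 4 of these 5 fell while THY1 rose. The epithelial gene KRT5 had 0 reads, and CDH1 (epithelial), CDH5 (endothelial) and CD3E (T cells) had at most 2 in any library. Summed epithelial markers ran from 0.294 to 0.533 RPM in controls and 0.314 to 0.463 in knockdowns, and leukocyte markers from 0.133 to 0.176 and 0.128 to 0.249. The epithelial sum was nearly all EPCAM, with 6 to 22 reads per library. The 2 endothelial markers found of 3 summed to 1.67 to 1.83 RPM in controls and 2.20 to 2.60 in knockdowns. This sum was nearly all VWF, with 49 to 90 reads per library. VWF rose by 0.42 on the log2 scale (SE 0.14, BH p in limma = 0.034). The part of the fibroblast and VWF shifts in the results below was not tested. In bulk RNA, fewer cells expressing a gene and less RNA per cell cannot be told apart. The labels do not say that replicates came from separate cultures, so p-values measure the spread between these libraries, which may be technical.

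Among the ligands, NRG1 (neuregulin 1, ENSG00000157168.14), which binds ERBB3 and ERBB4, lies on chromosome 8 (31496902 to 32622548, plus strand). Positions of genes are the table's own, on hg19 per the submitters' processing notes. NRG1 measured 80.7, 79.9 and 78.7 RPM in control replicates 1, 2 and 3 and 48.9, 44.4 and 45.1 RPM in knockdown replicates 1, 2 and 3. All 3 knockdowns lay far below the controls. NRG1 fell by 0.79 on the log2 scale (SE 0.05, 95% CI -0.90 to -0.68; BH p in limma = 1.2e-06). This was the largest change of the 7 tested members, and its size exceeded that of 93.9% of all genes tested. The gene has many isoforms, which a value per gene does not resolve.

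HBEGF (heparin-binding EGF-like growth factor, ENSG00000113070.6) lies on chromosome 5 (139712428 to 139726216, minus strand). It measured 28.9, 31.0 and 30.8 RPM in controls and 30.8, 31.4 and 28.7 RPM in knockdowns. The groups overlapped. The difference on the log2 scale was 0.0052 (SE 0.06; BH p in limma = 0.95), with a 95% interval from -0.125 to 0.135.

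EREG (epiregulin, ENSG00000124882.3) lies on chromosome 4 (75230860 to 75254468, plus strand), and AREG (amphiregulin, ENSG00000109321.6) on the same strand (75310851 to 75320726). Relative to the start of AREG, EREG starts at -79.99 kb. These neighbours, both EGFR ligands, had log2 fold changes of opposite sign, though AREG lost its call in 8 of 19 other fits. The 250 bases before each start are printed to set them side by side (RefSeq, GRCh38.p14, plus strand, chr4:74364895-74365144 for EREG and chr4:74444886-74445135 for AREG). Capitals mark matches on either strand to 6 motifs, namely TGANTCA of the factor AP-1, TGACGTCA of the cAMP response element, TATAAA of the TATA box, CCAAT, the GC box letters GGGCGG and the E-box letters CACGTG.
EREG: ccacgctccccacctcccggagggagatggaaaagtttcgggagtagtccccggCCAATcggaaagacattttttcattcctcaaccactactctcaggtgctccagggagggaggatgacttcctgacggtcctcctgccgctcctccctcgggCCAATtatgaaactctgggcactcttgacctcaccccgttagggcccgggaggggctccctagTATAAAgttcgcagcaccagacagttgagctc
AREG: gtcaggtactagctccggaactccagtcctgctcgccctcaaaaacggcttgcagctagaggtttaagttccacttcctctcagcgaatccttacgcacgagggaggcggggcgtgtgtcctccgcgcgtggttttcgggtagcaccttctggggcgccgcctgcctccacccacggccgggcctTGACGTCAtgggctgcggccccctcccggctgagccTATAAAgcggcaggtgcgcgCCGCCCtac
Both hold a TATAAA, whose first base is at -32 in EREG and -29 in AREG counted from the start. That motif occurs in 11.5% of all 35116 RefSeq promoter windows of 300 bases, which take 250 before and 50 after a start. EREG has CCAAT matches at -196 and -95, a motif held by 34.6% of windows. AREG has a TGACGTCA at -65, held by 1.85% of windows, and a GC box match at -9, held by 45.0%. The AP-1 and E-box letters, held by 7.71% and 7.26% of windows, occur in neither. These matches describe letters and do not show binding.

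EREG measured 108.5, 108.0 and 110.2 RPM in control replicates 1, 2 and 3 and 70.2, 72.4 and 67.5 RPM in the knockdowns. The controls lay within a band narrower than counting error alone gives, and all 3 knockdowns lay below it. EREG fell by 0.64 on the log2 scale (SE 0.04, 95% CI -0.74 to -0.54; BH p in limma = 2.0e-06).

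AREG measured 42.8, 33.5 and 38.1 RPM in control replicates 1, 2 and 3 and 42.9, 48.8 and 43.3 RPM in the knockdowns. The knockdowns were higher, but control replicate 1 almost touched the lowest of them. AREG rose by 0.24 on the log2 scale (SE 0.09, 95% CI 0.05 to 0.43; BH p in limma = 0.042). The table also lists AREGB (ENSG00000205595.3), a near-identical copy whose start lies 169.8 kb from that of AREG, and AREG held between 49.4% and 52.1% of the reads of the pair in every library. AREGB stood at 37.7 ± 3.5 RPM in controls and 42.6 ± 3.7 in knockdowns (SD, n = 3), a difference of 0.18 on the log2 scale that was not called (SE 0.08; BH p in limma = 0.10). Reads of AREG transcripts may thus be divided between 2 rows of the table, and values of both are uncertain. With the rows summed, the difference was 0.21 on the log2 scale (SE 0.08; BH p in limma = 0.053), which was not called. The AREG call was lost on leaving out any library but control replicate 1, with log2 fold changes from 0.15 without control replicate 2 to 0.28 without knockdown replicate 1 (BH p in limma 0.051 to 0.15). It was 0.33 without control replicate 1 (BH p in limma 0.0073). The fit with a replicate block also lost it (BH p in limma 0.099).

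TGFA and BTC gave next to no reads. TGFA (transforming growth factor alpha, ENSG00000163235.11) had 0 reads in each of the 6 libraries, which allows up to 0.0159 RPM over all libraries together (3 reads, counting error only). BTC (betacellulin, ENSG00000174808.7) had 1, 0 and 1 reads in control replicates 1, 2 and 3 and 2, 1 and 0 in the knockdowns. Neither was tested, and no fold change is given for genes this close to 0.

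**Figure D1:**
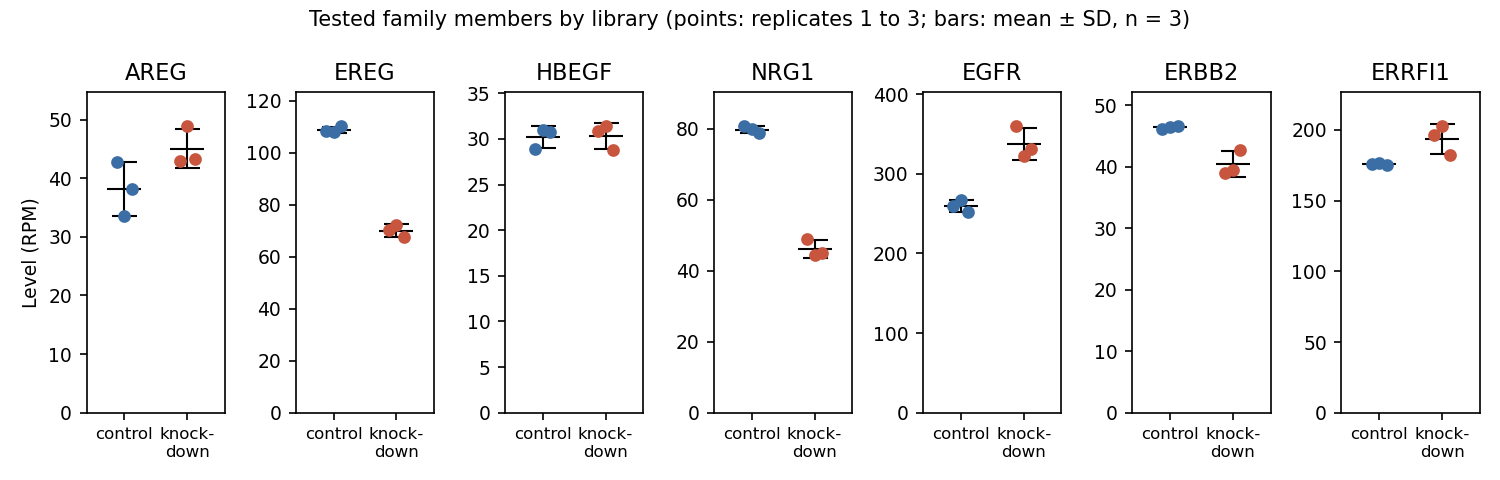
Level in RPM (vertical axes from 0, each panel with its own scale) of the 7 tested family members in the 3 control (blue) and 3 knockdown (red) libraries, with mean and SD in black (n = 3). EREG and NRG1 lie lower in all knockdowns, EGFR lies higher, and the HBEGF groups overlap.

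Of the receptors, EGFR (ENSG00000146648.11), which binds AREG, EREG and HBEGF, lies on chromosome 7 (55086714 to 55324313, plus strand). The 250 bases before the first of its 2 RefSeq starts are printed to set them beside the ligand genes (GRCh38.p14, plus strand, chr7:55018767-55019016), with matches to the same motifs in capitals.
EGFR: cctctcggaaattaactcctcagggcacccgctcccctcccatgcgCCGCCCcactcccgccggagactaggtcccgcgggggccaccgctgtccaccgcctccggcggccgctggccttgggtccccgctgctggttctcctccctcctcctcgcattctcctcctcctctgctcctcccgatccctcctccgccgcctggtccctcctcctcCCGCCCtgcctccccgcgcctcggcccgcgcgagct
This window holds no TATAAA and no AP-1 letters. Both occur in the window of the other start, with 2 matches each. The GC content over 300 bases was 75.3% for the first start, higher than in 91.0% of all windows. For the other start it was 42.0%, higher than in 14.9%. Which start these cells use was not tested. The GC content was 66.3% for AREG and 57.7% for EREG. Of the 10 members, 8 had at least 1 window in the RefSeq table.

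EGFR measured 259.4, 266.9 and 251.5 RPM in control replicates 1, 2 and 3 and 359.5, 321.8 and 331.2 RPM in the knockdowns. Every knockdown library was above every control. EGFR rose by 0.38 on the log2 scale (SE 0.05, 95% CI 0.27 to 0.49; BH p in limma = 0.00013). It overlaps the antisense gene EGFR-AS1, and the strand setting of the counting is not given in the sources used here.

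ERBB2 (ENSG00000141736.9), the receptor without a known ligand that pairs with the others, lies on chromosome 17 (37844167 to 37886679, plus strand). It measured 46.1, 46.5 and 46.6 RPM in controls and 39.0, 39.5 and 42.8 RPM in knockdowns. The groups did not overlap, and knockdown replicate 3 lay nearest the controls. ERBB2 fell by 0.20 on the log2 scale (SE 0.05, 95% CI -0.32 to -0.08; BH p in limma = 0.011). It overlaps MIEN1 and PGAP3 on the opposite strand, so part of its reads is uncertain.

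ERBB3 (ENSG00000065361.10, chromosome 12, 56473641 to 56497289, plus strand), a receptor of NRG1, had 4, 3 and 3 reads in controls and 0, 5 and 1 in knockdowns. ERBB4, the other NRG1 receptor, had 1, 2 and 4 reads in controls and 0, 2 and 3 in knockdowns. Both NRG1 receptors were therefore near the floor of 3 reads in both groups, while NRG1 itself had between 1040 and 3961 reads per library. Neither receptor was tested.

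ERRFI1 (ENSG00000116285.8, chromosome 1, 8064464 to 8086368, minus strand) encodes an inhibitor that binds the kinase domain of EGFR and is itself induced by growth factor signalling. It measured 175.9, 176.6 and 175.0 RPM in controls and 196.0, 202.4 and 182.1 RPM in knockdowns. The 3 controls were nearly equal, closer than counting error alone gives, and all knockdowns lay above them. ERRFI1 rose by 0.14 on the log2 scale (SE 0.05, 95% CI 0.03 to 0.24; BH p in limma = 0.036). The call was lost on leaving out any library but knockdown replicate 3, with log2 fold changes from 0.10 without knockdown replicate 2 to 0.14 without control replicate 2 (BH p in limma 0.057 to 0.13), and with a replicate block (0.074). Without knockdown replicate 3 the change was 0.18 (BH p in limma 0.017).

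**Figure D2:**
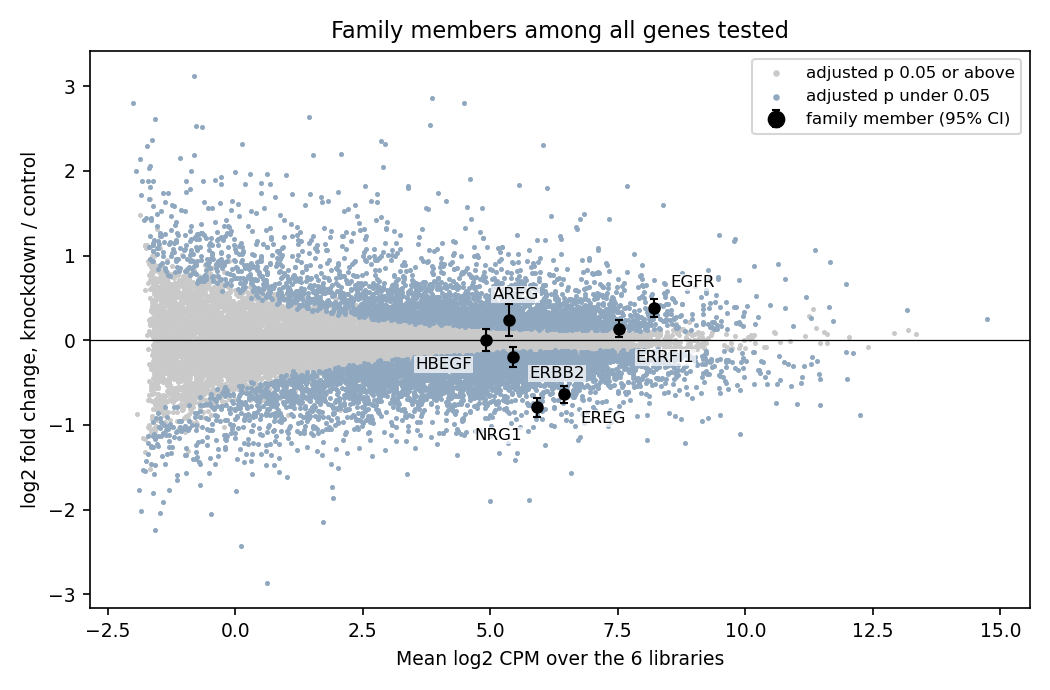
Log2 fold change of knockdown over control (vertical) against the mean log2 CPM over the 6 libraries (horizontal) for all 19048 genes tested, with the 7 tested family members in black and their 95% confidence intervals. The members span the range of changes from NRG1 at -0.79 to EGFR at 0.38, within the cloud of genes of similar level.

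The replicate spread differed among the members. In controls the coefficient of variation of RPM was 12.2% for AREG, where counting error alone gives 2.71%. It was between 0.449% and 3.86% for the other 6 tested members. For ERRFI1, ERBB2 (0.525% against 2.435%), EREG (1.05% against 1.59%) and NRG1 it lay below the counting error of the gene. For HBEGF and EGFR it lay above. Controls closer than counting error alone gives are not a measure of precision, and they make non-overlap with the knockdowns easier. In knockdowns the coefficient of variation ran from 3.50% for EREG to 7.35% for AREG, above the counting error of each gene (1.10% to 3.68%). AREG was thus the least precise of the 7 in either group.

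Per base of transcript, the order of the members differed from that in reads. In RPKM (RPM per kilobase of exon, with exon bases of GENCODE 29), ERRFI1 led in controls at 42.0 ± 0.2 and AREG followed at 23.2 ± 2.8 (SD, n = 3). EGFR stood at 20.7 ± 0.6 RPKM and EREG at 19.1 ± 0.2. HBEGF (10.01 ± 0.39), NRG1 (7.04 ± 0.09) and ERBB2 (4.50 ± 0.02) came after, an order of HBEGF and NRG1 that holds for these lengths only. AREG and EGFR did not differ beyond the spread of AREG. In knockdowns the order by RPKM was ERRFI1 (46.2 ± 2.5), AREG (27.3 ± 2.0), EGFR (27.0 ± 1.6), EREG (12.2 ± 0.43), HBEGF (10.05 ± 0.46), NRG1 (4.07 ± 0.22) and ERBB2 (3.92 ± 0.20), the same order as in controls with these lengths. With the longest transcript as length the order depended on the group: NRG1 (13.4 ± 0.2 RPKM) lay above HBEGF (12.7 ± 0.5) in controls and below it in knockdowns (7.78 ± 0.41 against 12.7 ± 0.6), where ERBB2 (8.20 ± 0.42) also stood next to NRG1 within their spread. With exon bases, the neighbours AREG and EGFR, and NRG1 and ERBB2, lay within each other's spread in knockdowns. If the AREGB reads belong to AREG, its level is understated in both groups. AREG would then hold 56.0% of a ligand sum of 82.2 RPKM in controls and 66.8% of 79.6 RPKM in knockdowns. Its place below ERRFI1 and its likeness to EGFR thus depend on leaving those reads out.

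AREG made up a larger share of the ligand transcripts, and EREG and NRG1 a smaller one, in every knockdown library than in any control. Summed over the 6 ligands, the level was 59.3 ± 2.6 RPKM in controls and 53.7 ± 2.6 in knockdowns (SD, n = 3), and the exact two-sided permutation test gave p = 0.2. AREG held 42.1%, 36.0% and 38.8% of that sum in control replicates 1, 2 and 3 and 49.2%, 52.3% and 50.9% in the knockdowns. The share of EREG was 30.8%, 33.4% and 32.4% in controls and 23.2%, 22.4% and 22.9% in knockdowns. NRG1 went from 11.9% ± 0.5 to 7.60% ± 0.63 and HBEGF from 16.9% ± 1.3 to 18.7% ± 0.5 (SD, n = 3). For each of these 4 ligands the libraries of the groups did not overlap, and p in the exact permutation test was 0.1, which is the lowest value possible with 3 against 3 (0.15 after Benjamini-Hochberg adjustment over the 6 ligands). Shares of the same sum are tied: where those of EREG and NRG1 fall, the rest rises by construction. The larger shares of AREG and HBEGF are thus not separate results. The HBEGF level itself overlapped between the groups (log2 fold change 0.0052). With AREGB reads added to AREG, the difference in the HBEGF share dropped from 1.79 to 0.418 percentage points (exact permutation p = 0.7). The ligand sum with these reads gave an exact permutation p of 0.5. With the longest transcript as length the sum was 80.5 ± 3.4 RPKM in controls and 72.0 ± 3.4 in knockdowns (exact permutation p = 0.1). The outcome for the sum thus depends on the lengths and on AREGB. Among the 3 receptors, as a description, EGFR held 82.1% ± 0.4 of the summed RPKM in controls and 87.3% ± 1.0 in knockdowns, and ERBB2 nearly all the rest.

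**Figure D3:**
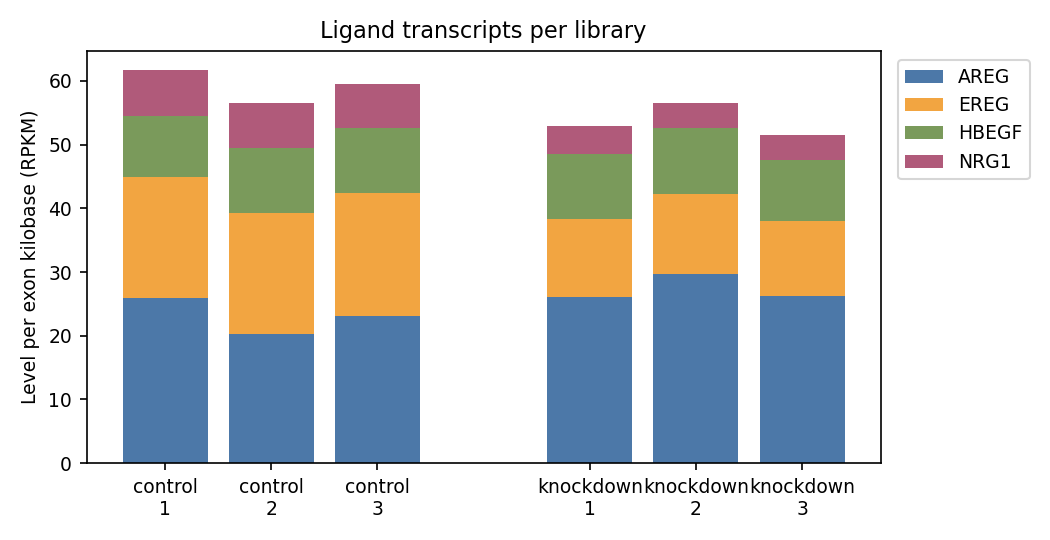
Stacked level in RPKM of AREG, EREG, HBEGF and NRG1 in each of the 3 control and 3 knockdown libraries (TGFA and BTC are too low to be seen). The AREG part is 36.0% to 42.1% of the ligand sum in controls and 49.2% to 52.3% in knockdowns, and the EREG and NRG1 parts are smaller in knockdowns.

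AREG and EREG stand in a cluster of EGF-family genes on chromosome 4 that also holds EPGN and BTC, next to a group of CXC chemokine genes. The table lists 19 genes within 500 kb of AREG, of which 8 were tested, and 2 rose and 3 fell with AREG and EREG counted, where 17.5% of all genes tested were called higher and 23.5% lower. EREG was not alone in falling. The chemokine gene CXCL3, whose start lies at -408.6 kb from that of AREG, changed by -1.35 on the log2 scale (SE 0.20; BH p in limma = 0.00040), from 2.26 ± 0.22 to 0.888 ± 0.230 RPM (SD, n = 3). CXCL5 fell by 0.85 on the log2 scale (SE 0.29; BH p in limma = 0.037), a call lost without control replicate 2 or 3 or knockdown replicate 1 or 3 (-0.91 to -0.55; BH p in limma 0.071 to 0.15). The pseudogene RP11-629B11.4 rose by 0.25, and without control replicate 2 the value was 0.21 (BH p in limma 0.065). CXCL2 (-0.26), MTHFD2L (0.09), which lies between the chemokines and EREG, and AREGB were not called here. Neither EPGN, with 6 reads in all libraries together, nor BTC, with 5, could be tested. Without control replicate 2 the number called in this stretch was 2 in place of 5, and it was 3 without control replicate 3, knockdown replicate 1 or knockdown replicate 3.

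**Figure D4:**
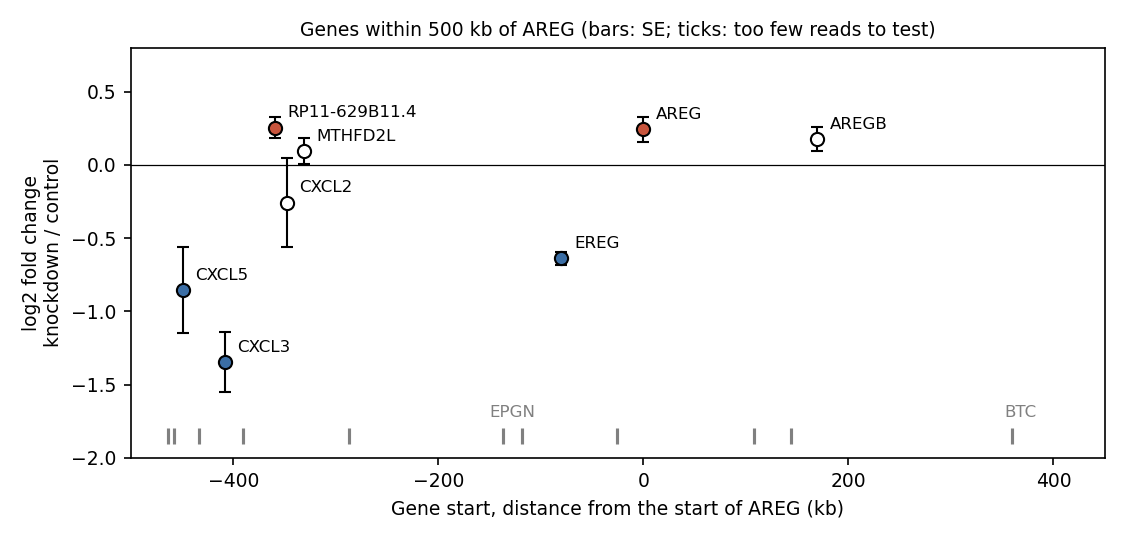
Log2 fold change with SE (vertical) of the 8 tested genes within 500 kb of AREG against the distance of their starts from that of AREG in kb (horizontal). Red marks genes that rose, blue genes that fell, white genes not called, and grey ticks the 11 genes with too few reads to test. EREG lies near AREG with the opposite sign, and the AREG call was lost in 8 of 19 other fits.

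Genes that act on or beside this family were taken from 6 lists chosen by role, which together hold 55 genes. Of the 51 tested, 16 were higher and 16 lower, so 62.7% were called against 41.0% of all genes tested, with a median log2 fold change of -0.02. In the list of other ligands and ERBB4, 2 of 6 genes were tested and 1 rose. This was NRG4, a further ERBB4 ligand, from 1.62 ± 0.36 to 2.49 ± 0.17 RPM (SD, n = 3), which is 0.65 on the log2 scale (SE 0.18; BH p in limma = 0.013; without control replicate 3, 0.055). EGF itself had 15 to 28 reads per library and was not called (log2 fold change 0.36, SE 0.28; BH p in limma 0.33).

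Of the 8 genes of ligand shedding and maturation, 4 rose and 2 fell (75.0% called, against 41.0% of all genes), with a median log2 fold change of 0.24 against -0.04 for all genes tested. The 4 that rose were the list's metalloproteases. ADAM17, the main sheddase of AREG, EREG and HBEGF, measured 28.8, 30.0 and 27.3 RPM in control replicates 1, 2 and 3 and 59.2, 57.6 and 58.3 RPM in the knockdowns. All knockdowns were close together and far above the controls. ADAM17 rose by 1.02 on the log2 scale (SE 0.05; BH p in limma = 2.9e-07). ADAM10, which sheds BTC and EGF, rose by 0.72 (SE 0.04; BH p in limma 3.9e-07). ADAM12, which can cut HBEGF, rose by 2.80 (SE 0.13; BH p in limma 1.1e-07), from 8.61 ± 1.97 to 59.2 ± 3.1 RPM (SD, n = 3). RHBDF2, encoding iRhom2, which carries ADAM17 to the cell surface, fell by 0.55 (SE 0.13; BH p in limma 0.0065). ADAM9 (0.51) and TIMP3 (-0.32), an inhibitor of ADAM17, were also called, and these 2 are named after their values were seen. RHBDF1, likewise named afterwards, stood at 30.3 RPKM in controls, against 0.96 for RHBDF2. It was not called (-0.02 on the log2 scale, SE 0.08, BH p in limma 0.90). The loci of ADAM10, ADAM12 and ADAM17 overlap other genes of the table, which makes their counts less certain.

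Of the 10 adaptors next to the receptors, 6 rose and 2 fell (80.0% called, against 41.0% of all genes), with a median of 0.17 on the log2 scale. The docking proteins GAB2 (log2 fold change 0.55, SE 0.07) and GAB1 (0.42, SE 0.08) rose, as did PLCG1 (0.39, SE 0.05), the phospholipase recruited by EGFR, and SOS2 (0.35, SE 0.06), an exchange factor of Ras. Their BH p values in limma were 7.8e-05, 0.0023, 0.00012 and 0.0013. The 2 that fell, named after their values were seen, were the adaptors GRB2 (-0.32) and SHC1 (-0.20), which couple the receptors to SOS proteins.

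Of the 10 dampers of the receptors other than ERRFI1, 4 rose and 4 fell (80.0% called, against 41.0% of all genes), with a median log2 fold change of -0.02. The Sprouty genes, feedback inhibitors of growth factor signalling, were divided. SPRY2 measured 143.6, 152.7 and 153.7 RPM in control replicates 1, 2 and 3 and 82.8, 83.9 and 79.3 RPM in the knockdowns. It fell by 0.87 on the log2 scale (SE 0.05; BH p in limma = 3.5e-07). SPRY4 fell by 0.36 (SE 0.05; BH p in limma 0.00012), whereas SPRY1, at a much lower level per length (1.93 RPKM in controls against 49.4 for SPRY2), rose by 0.52 (SE 0.11; BH p in limma 0.0037). LRIG1, a membrane protein that lowers EGFR amounts, rose by 0.38 (SE 0.04; BH p in limma 6.2e-05).

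Of the 9 genes of receptor uptake and sorting, 1 rose and 2 fell, and the list's share called, 33.3%, was below the 41.0% of all genes. EPN1, an adaptor of clathrin coats, had overlapping groups and differed by -0.49 on the log2 scale (SE 0.13; BH p in limma = 0.011; 0.11 with robust eBayes and 0.077 without the variance trend). USP8, a deubiquitinase that acts on EGFR, fell by 0.31 (SE 0.05; BH p in limma 0.00074). RAB5A, of early endosomes, rose by 0.16 (SE 0.04; BH p in limma 0.013; 0.051 with a replicate block).

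Of the 12 transcripts that respond to ERK, the kinase below Ras and EGFR, 0 rose and 6 fell in limma, with a median of -0.14 on the log2 scale. The share called, 50.0%, was near the 41.0% of all genes, of which 23.5% were lower. At an unadjusted p under 0.05, 1 was higher, and voom on the recovered reads called 0 higher and 6 lower. PHLDA1 fell by 0.43 (SE 0.05), DUSP5 by 0.39 (SE 0.05) and EGR1 by 0.38 (SE 0.06), with BH p values in limma of 5.3e-05, 0.00012 and 0.00028. DUSP5 encodes a phosphatase of ERK and EGR1 an immediate early transcription factor. FOSL1, an AP-1 subunit, fell by 0.24 (SE 0.06; BH p in limma 0.0099; 0.052 without the variance trend).

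**Figure D5:**
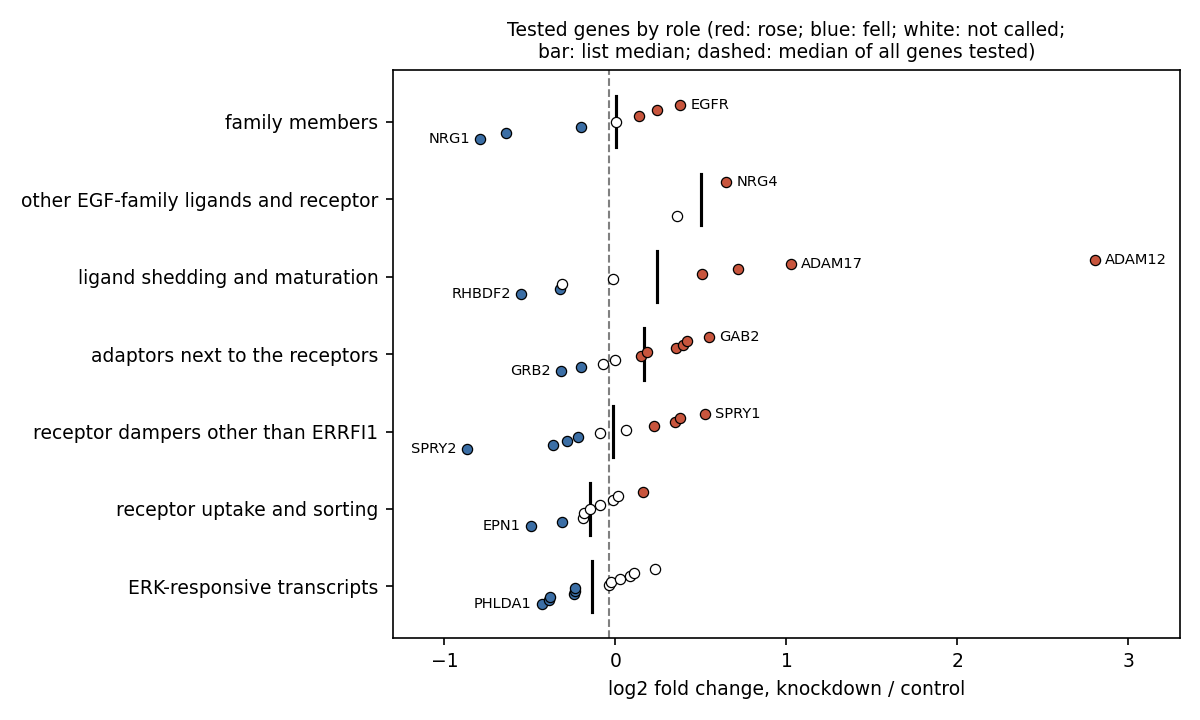
Log2 fold change (horizontal) of the tested family members and of the tested genes in the 6 lists (rows). Red points rose, blue points fell, white points were not called, black bars are list medians and the dashed line is the median of all genes tested (-0.04). ADAM12 lies far to the right at 2.80, and SPRY2 is lowest among the listed genes at -0.87.

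The genes whose log2 values followed NRG1 most closely over the 6 libraries were WIPI1, PAFAH1B2, ARRDC4, RPSA and TIMP2, with Pearson r from 0.9989 to 0.9996. These r values are a description: the 6 points fall into 2 groups, whose gap enters every r, and 258 of 19047 genes had an r above 0.99. Their log2 fold changes ran from -0.31 for RPSA to -1.90 for ARRDC4. RPSA, a ribosomal protein gene, has near-identical pseudogenes, so its counts are uncertain. Within the family, EREG came closest to NRG1 (r = 0.988), and EGFR ran the other way (r = -0.927).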

How the data were processed

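RNA of 6 libraries, 3 per group, was measured by sequencing of polyA RNA as single reads, per the labels' protocols. Reads were aligned with Bowtie2 to hg19 and counted with featureCounts, per the submitters' processing notes; versions, strand setting and annotation are not given in the sources used here. The authors deposited log2 CPM values of 57819 genes, whose form was worked out from the values: log2 of reads plus 0.5, scaled to an effective library size of 1000000. Undoing this gave whole reads (within 0.01) for 100% of values. The sizes equal the library totals times factors that differed by at most 3.7e-06 from trimmed-mean factors computed from the reads. The siRNA in the knockdown columns has a suffix without explanation in the labels.

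From these values, limma 3.58.1 (R 4.3.3) was run with eBayes trend and only the group in the model (two-sided), on the 19048 genes averaging 10 or more normalized reads. Benjamini-Hochberg adjustment covered all of these genes. The offset of 0.5 weighs more in the shallower knockdown libraries, so it moves the log2 fold changes of low genes and does not always shrink them. At an offset of 5 reads EGF was 0.40 in place of 0.36, and the lncRNA -2.50 in place of -2.86. With no read in a library, up to 3 reads are allowed, which is 0.0596 to 0.134 RPM (counting error only). The name sin-lncRNA was matched through a RefSeq gene table to its Ensembl ID. Exon bases came from GENCODE 29 by gene ID, and promoter windows from RefSeq. Named genes were the members, the targeted lncRNA, up to 4 called genes per list with the largest changes, tested genes near AREG and the 5 genes most like NRG1. The members and lists were chosen with earlier results of these data known. Departures of same-numbered replicates from their group's mean had correlations of -0.15, -0.18 and 0.07, and those of other pairs ran from -0.08 to 0.20. Departures are tied to each other within a group of 3 libraries, so these values cannot decide whether replicates were paired. The fit was also run on simulated data. These gave every gene the same spread beyond counting error, unlike the libraries here, so they do not vouch for the calls. Other offsets, filters, scalings, variance models, thinning, left-out libraries and a replicate block were tried, and the sum of AREG and AREGB was added after seeing the data.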

Additional observations from a re-analysis of the deposited data

How the results depend on the processing

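The changes of NRG1 (-0.83 to -0.75), EREG (-0.66 to -0.61), EGFR (0.33 to 0.41) and ERBB2 (-0.24 to -0.16) kept direction and call in all 19 other fits, 1 of which, with trimmed-mean factors, equals the deposited scaling. AREG (0.15 to 0.33) and ERRFI1 (0.10 to 0.18) kept direction, and each lost its call in 8 of 19; the eBayes fit without trend (BH p in limma 0.13 and 0.12) lost both. HBEGF was never called and lay between -0.027 and 0.043 when single libraries were dropped (-0.027 without control replicate 1, -0.0075 without knockdown replicate 1 and -0.020 without knockdown replicate 2); EGF, also not called, was -0.00086 after thinning. The number of members called ran from 4 to 6. It was 4 with the replicate block, where AREG and ERRFI1 were not called; RAB5A was the sole other named gene to lose its call there. The lncRNA stayed called, from -2.97 to -2.50. Over all genes 5803 (without control replicate 3) to 10220 (no filter) were called, and 28 to 35 of the listed genes. The fit without a filter covered all 57819 genes, with a median log2 fold change of 0.60 against -0.04 in the main fit, so its count is not comparable. Near AREG the count was 3 without the variance trend and 2 to 5 on dropping single libraries, and the cause was not tested. With AREGB added to AREG, the differences in ligand share were -7.82 percentage points for EREG, 0.418 for HBEGF and -3.45 for NRG1, against -9.37, 1.79 and -4.29; with the longest transcript as length that of NRG1 was -5.90. The cause of these shifts is the larger AREG sum or the shorter NRG1 length by construction. BTC, TGFA and ERBB3, with at most 5 reads in any library, had too few reads for the test.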
